A study of Mus musculus with 6 samples.

Results

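The integrated stress response and the unfolded protein response are the programs by which a cell adjusts to unfolded protein, amino acid shortage or failing mitochondria. In the integrated stress response, kinases phosphorylate the translation initiation factor eIF2α, which lowers protein synthesis and favours translation of the transcription factor ATF4, whose targets import and make amino acids and, under lasting stress, include CHOP (Ddit3). In the unfolded protein response, 3 sensors of the endoplasmic reticulum (ER), IRE1 (Ern1), PERK (Eif2ak3) and ATF6, raise chaperones and the machinery that degrades misfolded protein; PERK is also one of the eIF2α kinases. In brown fat, FGF21 and GDF15 are known as hormones that ATF4 can induce when mitochondria are under stress.

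The 39 genes described here were taken by name: 21 of an ATF4 arm, 15 of an ER chaperone arm and the 3 ER stress sensors. Each gene was represented by its brightest probe set, a group of short oligonucleotides on the array that the platform annotation names for that gene alone. Of the 39, 38 had such a probe set (Gdf15 had none) and 37 lay above the limit for dim genes, a mean intensity of 163.6 (Fgf21 lay below it). They stand among 18193 named genes, of which 13658 were above the same limit.

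RNA of mouse brown fat cells, immortalised with SV40 large T antigen and differentiated for 7 days, was measured on 6 one-colour arrays in 3 groups of 2. The first group was wild type, at passage 4, with no siRNA named. The second, called knockout-control here, was PGC-1alpha -/- with a control siRNA. The third, called knockdown, was PGC-1alpha -/- with an siRNA against PGC-1beta. PGC-1α and PGC-1β are transcriptional coactivators of mitochondrial genes, and the design asks what is lost with the first and what with both. The knockdown step compares cells of one genotype, whereas in both comparisons with wild type the genotype, the siRNA vector and the cell line cannot be told apart. In the knockdown step the loss of PGC-1β and any other effect of that siRNA cannot be told apart. The design text calls the replicates biological but does not say that they were separate cell lines, so p-values measure the spread between these samples. In RNA from a whole culture, fewer cells of a type and less RNA per cell cannot be told apart.

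Ppargc1b, the target of the siRNA, read 2850 and 3162 in wild type, 1862 and 2302 in knockout-control, and 533.8 and 223.8 in knockdown cells. Ppargc1a read 1338 and 1319, 767.4 and 830.4, and 1146 and 647.8 in the same order; whether its probe set lies in the deleted part was not examined here, so it does not check the genotype. Median intensities of the arrays ran from 220.9 to 242.7. Adipocyte markers fitted the label: Fabp4, the fatty acid binding protein of adipocytes, read between 13500 and 15530 on the 6 arrays, and the 7 named markers of 8 summed to between 55910 and 58950 in the first 2 groups and to 44290 and 47000 in knockdown cells. Ucp1, the uncoupling protein that defines brown fat, read 4488, 4761, 4199 and 3725 there and 155.8 and 104.7 in knockdown cells. The array of knockdown replicate 1 read above that of replicate 2 for 30 of the 33 members measured on both, and for 74% of all genes; between the replicates of knockout-control, replicate 1 was the higher for 7 of 37 members and for 30.4% of all genes.

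Promoters of the members are shown because the 2 arms are read by different factors. ATF4 with C/EBP proteins is known to bind a composite C/EBP-ATF element, searched as TGATGNAA, and ATF6 an ER stress response element, searched as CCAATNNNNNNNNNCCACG. RefSeq promoters (mouse build GRCm38.p6, 250 bases before to 50 after each gene's start) matched 33 of the 39 members, and both strands were searched. Manf, Hyou1, Atf6, Slc7a5, Aldh1l2 and Cth had no promoter in the set and were not searched. The C/EBP-ATF element occurred in 7 of 18 promoters of the ATF4 arm (38.9%), in 1 of 13 of the ER chaperone arm (7.69%) and in 1219 of all 27025 genes with a promoter (4.51%). The ER stress response element occurred in 6 of 13 promoters of the ER chaperone arm (46.2%), in 0 of 18 of the ATF4 arm and in 37 of 27025 (0.137%). These genes are textbook targets of those factors, so the shares describe how the arms were composed. A match is not shown to be a bound site. The unfolded protein response element, TGACGTGG, occurred in none of the 33 and in 0.714% of all genes.

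**Figure D1:**
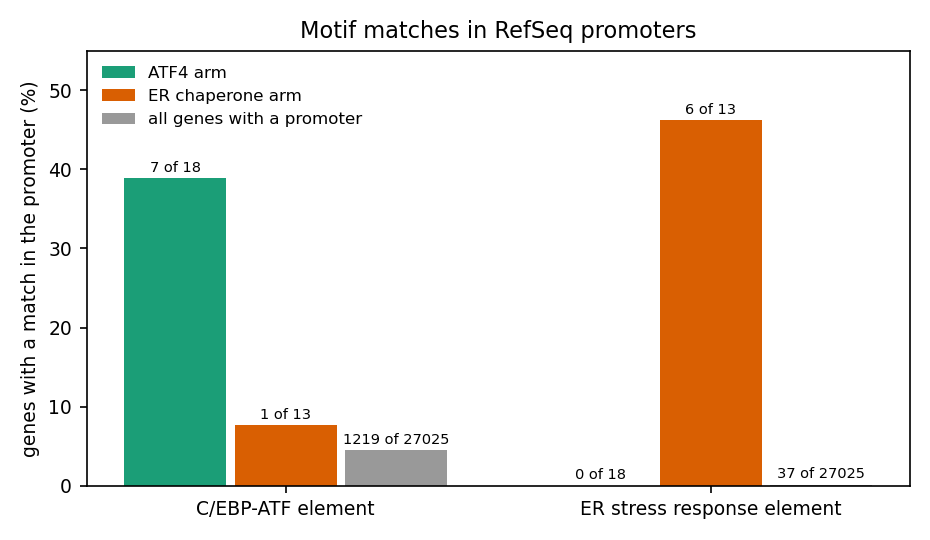
Share of genes (%) whose promoter holds a C/EBP-ATF element or an ER stress response element, for the ATF4 arm (green), the ER chaperone arm (orange) and all genes with a promoter (grey). The C/EBP-ATF element stands at 38.9% in the ATF4 arm and the ER stress response element at 46.2% in the ER chaperone arm, against 4.51% and 0.137% over all genes.

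The 250 bases before the start of Chac1 are given whole because Chac1 was the member that rose with loss of PGC-1β; they lie at chr2:119350992-119351241 on the plus strand, and capitals mark the C/EBP-ATF element, read on the opposite strand, 193 to 186 bases before the start.
Chac1: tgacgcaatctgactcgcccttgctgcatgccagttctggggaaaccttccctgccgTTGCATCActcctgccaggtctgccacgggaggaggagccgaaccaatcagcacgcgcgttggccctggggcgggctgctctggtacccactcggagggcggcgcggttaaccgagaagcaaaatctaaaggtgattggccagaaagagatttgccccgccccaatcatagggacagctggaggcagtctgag
The other matches upstream of ATF4-arm genes are shown with 20 bases on either side where the window allows, each on the strand of its gene, with the element in capitals. Atf3 (chr1:191183416-191183463, minus strand), Nupr1 (chr7:126625553-126625600, minus strand), Fgf21 (chr7:45615602-45615649, minus strand), Asns (chr6:7693210-7693252, minus strand) and Slc7a11 (chr3:50443652-50443699, minus strand, 1 of its 2 matches) read as follows.
Atf3: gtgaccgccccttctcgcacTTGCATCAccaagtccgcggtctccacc
Nupr1: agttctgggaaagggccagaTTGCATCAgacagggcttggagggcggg
Fgf21: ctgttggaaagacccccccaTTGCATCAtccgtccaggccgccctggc
Asns: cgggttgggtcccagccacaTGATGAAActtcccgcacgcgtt
Slc7a11: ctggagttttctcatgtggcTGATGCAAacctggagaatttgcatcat
The letters TTGCATCA, the element read on the opposite strand, were shared by Chac1, Atf3, Nupr1 and Fgf21, and by the second match of Slc7a11, which stands in lower case at the end of its line. The match of Trib3 lay after its start site and is not shown.

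Lowering PGC-1β in knockout cells went with higher readings across most of the ATF4 arm, and 1 gene of it passed the test. Chac1, a glutathione-degrading enzyme and a late ATF4 target, rose 2.7-fold. Of the 19 members of this arm above the limit, 18 had a log2 fold change above 0, and their median was 0.49 against -0.01 over all genes tested. Of all 13649 genes tested in this comparison, 114 changed (0.835%) at a limma adjusted p under 0.05, 37 of them upward, so that few genes passed the test at all.

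Chac1 read 419.5 and 426.5 in wild type, 447.1 and 332.2 in knockout-control, and 1245 and 967.3 in knockdown cells. Both knockdown arrays stood well above the other 4, and wild type and knockout-control overlapped. Group means were 423 ± 4.957 (SD, n = 2), 389.6 ± 81.23 and 1106 ± 196.3. The log2 fold change of knockdown against knockout-control was 1.44 ± 0.19 (SE; limma adjusted p = 0.022), and against wild type it was 1.31 ± 0.19, a 2.48-fold rise (limma adjusted p = 0.00482). Without knockout-control replicate 1 or 2 the first call was lost, with an adjusted p of up to 0.134 and a log2 fold change between 1.24 and 1.63, whereas the rise over wild type was called whichever array was left out.

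Nupr1, a small stress-induced chromatin protein, came next in size. It read 2005 and 2147 in wild type, 1930 and 2447 in knockout-control, and 4219 in knockdown replicate 1, with an empty cell for replicate 2. Its difference in the knockdown step, 0.95 ± 0.21, missed the threshold (limma adjusted p = 0.0918), and its 2.02-fold rise over wild type passed (1.01 ± 0.21, adjusted p = 0.025). A second probe set for Nupr1 gave 0.99 and 1.05 in those comparisons, again without a value on knockdown replicate 2, so Nupr1 rests on 1 knockdown array.

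At an unadjusted p under 0.05, 10 of the 19 ATF4-arm genes were higher in knockdown than in knockout-control cells and 0 were lower, beside 5.93% of all genes higher and 8.21% lower. The 10 were Chac1, Nupr1, Mthfd2, Asns, Phgdh, Slc7a5, Ddit3, Aldh1l2, Atf3 and Psph. Nupr1, Asns and Phgdh had a value on knockdown replicate 1 only, where this arm read higher than on replicate 2. Of the 15 with a value on both knockdown arrays, 9 were higher on every knockdown array than on every knockout-control array and 1, Atf5, was lower, beside 17.1% and 21.4% of all genes. Apart from Chac1, none of these genes passed adjustment over all genes.

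Among the transcription factors, Atf4 itself differed little. It read 3529 and 3866 in wild type, 3347 and 4377 in knockout-control, and 4625 and 3204 in knockdown cells, and the 3 groups overlapped. The log2 fold change was 0.01 ± 0.21 (limma adjusted p = 0.991) in the knockdown step. ATF4 is mainly regulated through translation, which arrays do not measure. A second Atf4 probe set read 3267 and 3845 in knockout-control and 4655 and 4072 in knockdown cells, a log2 fold change of 0.29 that did not pass either, and a dimmer one read 342.7 and 464.9, then 313.8 and 267.4 (-0.42, which did not pass).

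Ddit3, which encodes the pro-apoptotic factor CHOP, read 2568 and 2712 in wild type, 2479 and 3601 in knockout-control, and 4998 and 3942 in knockdown cells. Both knockdown arrays were above the other 4, but the difference missed the threshold in the knockdown step (0.57 ± 0.20, limma adjusted p = 0.265) or against wild type (0.74 ± 0.20, adjusted p = 0.0559). Atf3, an ATF4-induced factor that represses and activates stress genes, read 388.8 and 346.1, then 561.5 and 398.6, then 814.9 and 608.6. Its groups stood in that order without overlap, and it rose 1.85-fold from wild type to knockdown cells (0.88 ± 0.20, limma adjusted p = 0.0312), while the steps of 0.34 and 0.54 between them did not pass.

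Atf5, a factor linked to the mitochondrial unfolded protein response, did not follow the rest of its arm. It read 3447 and 2766 in wild type, 5120 and 4803 in knockout-control, and 4405 and 3543 in knockdown cells. It was highest in knockout-control cells, with a log2 fold change of 0.68 ± 0.17 over wild type (limma adjusted p = 0.0586) and -0.33 ± 0.17 from knockout-control to knockdown (adjusted p = 0.451), neither past the threshold.

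Of the 6 serine and one-carbon enzymes, 5 had their highest reading on a knockdown array, Shmt2 being the exception, and none passed the test by its brightest probe set. Phgdh, the first enzyme of serine synthesis, read 4269 and 4300 in wild type, 2970 and 3327 in knockout-control, and 4575 on the knockdown array that gave a value. Phgdh was thus lower in knockout-control than in both other groups, with log2 fold changes of -0.44 (limma adjusted p = 0.141) and 0.54 (adjusted p = 0.247). Its other probe sets had values on both knockdown arrays and gave 0.53, 0.27 and 0.62 in the knockdown step, and none passed. For the probe set at 0.27, knockout-control (2277 and 2938) and knockdown cells (3870 and 2534) overlapped. Mthfd2, the mitochondrial folate dehydrogenase, had the same order, at 2446 and 2477, then 2241 and 2134, then 3369 and 2839. Its difference in the knockdown step was 0.49 ± 0.15 (limma adjusted p = 0.179). A second Mthfd2 probe set read 2016 and 1967 in wild type, 1996 and 2261 in knockout-control, and 3072 and 2097 in knockdown cells. There knockout-control was not below wild type (0.09). Knockout-control and knockdown cells overlapped (0.25, limma adjusted p = 0.654 in the fit over all probe sets).

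Aldh1l2, which oxidises formyl folate in mitochondria, read 1852 and 1918 in wild type, 1274 and 1759 in knockout-control, and 2431 and 1919 in knockdown cells. Psph, the last enzyme of serine synthesis, read 1335 and 1471, then 1134 and 1365, then 2041 and 1430. Psat1, the aminotransferase between them, read 3239 and 3260, then 3114 and 3968, then 4523 on knockdown replicate 2, and its other probe set read 2213 and 3025 in knockout-control and 5495 on knockdown replicate 1. That second Psat1 probe set rose from wild type to knockdown cells (log2 fold change 1.09, adjusted p = 0.0259 in the fit over all probe sets), which the brighter one did not (0.47, adjusted p = 0.218 in that fit), each on 1 knockdown array. Shmt2, the mitochondrial serine hydroxymethyltransferase, stayed between 2093 and 2455 on the 6 arrays.

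Of the amino acid genes, Asns, asparagine synthetase, read 2696 and 2843 in wild type, 2522 and 2738 in knockout-control, and 3852 on the single knockdown array with a value (0.55 ± 0.18 in the knockdown step, limma adjusted p = 0.238). A second Asns probe set, with values on both knockdown arrays, read 1750 and 2224 in knockout-control and 3093 and 1824 in knockdown cells. Those groups overlapped (0.26, limma adjusted p = 0.715 in the fit over all probe sets). Slc7a5 and Slc3a2 encode the light and heavy chains of a transporter of large neutral amino acids. Slc3a2 read 2583 and 3032, then 3829 and 4318, then 5575 and 4900. Its groups stood in that order without overlap, and the 1.86-fold rise from wild type to knockdown cells passed the test (0.89 ± 0.16, limma adjusted p = 0.0114), whereas the steps of 0.53 (adjusted p = 0.0897) and 0.36 (adjusted p = 0.353) did not. Slc7a5 read 1348 and 1335, then 1101 and 1318, then 2137 and 1466, so its knockout-control arrays were the lowest rather than intermediate.

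Slc7a11, the cystine transporter that also pairs with Slc3a2, stayed between 190.6 and 252 on the 6 arrays. Cth, which makes cysteine from cystathionine, read 850 on knockdown replicate 1 and between 376 and 491.7 on the other 5 arrays, so its value in knockdown cells rests on 1 array. Trib3, a pseudokinase that feeds back on ATF4 and CHOP, read 2872 and 2795 in wild type, 3455 and 3820 in knockout-control, and 3821 and 3944 in knockdown cells, its larger step being the first (0.36, limma adjusted p = 0.189). A second Trib3 probe set, with a value on knockdown replicate 1 only, gave 0.48 for the first step and 0.43 for the knockdown step. It gave 0.92 for knockdown against wild type, and none of these passed. Sesn2, a leucine sensor and inhibitor of mTORC1, stayed between 977.1 and 1231.

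Fgf21 was below the limit for dim genes, but its readings are given because it is a hormone of brown fat. It read 77.37 and 79.22 in wild type, 70.81 and 78.6 in knockout-control, and 209 and 140.2 in knockdown cells. Both knockdown arrays were the highest. In a fit with no limit for dim genes the log2 fold change of the knockdown step was 0.93 ± 0.19 (limma adjusted p = 0.169). The added constant of 32 makes such a fold change of a dim gene smaller than the ratio of the intensities.

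The height of this arm differed between the knockdown arrays. The median of its members over the wild-type mean was 0.51 on knockdown replicate 1 and 0.13 on replicate 2. The same median was -0.07 and 0.12 for replicates 1 and 2 of knockout-control, and for all genes it was 0.04 and -0.10 on the knockdown arrays. The arm's median in the knockdown step was 0.23 without knockdown replicate 1, 0.30 without knockout-control replicate 1, 0.53 without knockout-control replicate 2 and 0.58 without knockdown replicate 2. Knockdown replicate 1, which had the higher stress readings, also had the higher Ppargc1b reading, and it read above replicate 2 for 74% of all genes. Whether these readings are linked was not tested. Summed markers of preadipocytes and fibroblasts (9 of 10 named) were 12740 to 13080 in knockout-control and 14580 to 14970 in knockdown cells. Of the 7 of them tested, 1 rose in this step, Dlk1 (384.4 and 437.9 to 1609 and 1452), 4 were below 0, and the median was -0.13. Summed adipocyte markers were lower in knockdown cells as given above, and no marker of either list was at 0. Of the 7 adipocyte markers tested, 7 were below 0 in this step and 2 were called lower, with a median of -0.22. Besides Ucp1, Cidea went from 7011 and 6697 to 3184 and 2796, whereas Fabp4 went from 15530 and 14790 to 14630 and 13500. The part of cell state, or of the difference between replicates, in the ATF4-arm readings was not tested.

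With PGC-1α absent and the control siRNA present, the ER chaperone arm lay mostly below wild type, with log2 fold changes above 0 for Herpud1, Dnajb9, Xbp1, Sel1l and Hyou1. Manf, a secreted ER-stress protein with neurotrophic activity, fell 2.23-fold, and Herpud1, a membrane protein of ER-associated degradation, rose 1.49-fold. The median log2 fold change of the 15 members was -0.28, with 10 below 0 and 5 above, against 0.00 over all genes. The ATF4 arm in the same comparison had 0 of 19 called, 10 above and 9 below 0, and a median of 0.05. Over all 13652 genes tested, 826 changed (6.05%), 348 up and 478 down.

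The ER stress response elements of the chaperones are shown because 6 genes of this arm share them. Each window is on the strand of its gene, with the element in capitals, on build GRCm38.p6. They are Hspa5 (chr2:34772005-34772063, plus strand), Calr (chr8:84847055-84847113, minus strand), Canx (chr11:50325780-50325838, minus strand), Creld2 (chr15:88819500-88819558, plus strand), Hsp90b1 (chr10:86705513-86705571, minus strand, the nearer of 2 matches) and Pdia6 (chr12:17266471-17266529, plus strand).
Hspa5: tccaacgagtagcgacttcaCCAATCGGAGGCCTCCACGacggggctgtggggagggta
Calr: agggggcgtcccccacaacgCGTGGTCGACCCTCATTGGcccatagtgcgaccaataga
Canx: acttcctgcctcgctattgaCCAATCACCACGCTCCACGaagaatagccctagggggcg
Creld2: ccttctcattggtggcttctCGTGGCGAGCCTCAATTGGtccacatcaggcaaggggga
Hsp90b1: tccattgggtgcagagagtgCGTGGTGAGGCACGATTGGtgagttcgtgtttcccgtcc
Pdia6: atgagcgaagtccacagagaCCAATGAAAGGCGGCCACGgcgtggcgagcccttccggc
The 250 bases before Herpud1 (chr8:94386179-94386428, plus strand) are given whole because it was the chaperone-arm gene that rose. Its capitals mark, in order, a C/EBP-ATF element read on the opposite strand, 112 to 105 bases before the start, and an ER stress response element II, ATTGGNCCACG, 52 to 42 bases before it.
Herpud1: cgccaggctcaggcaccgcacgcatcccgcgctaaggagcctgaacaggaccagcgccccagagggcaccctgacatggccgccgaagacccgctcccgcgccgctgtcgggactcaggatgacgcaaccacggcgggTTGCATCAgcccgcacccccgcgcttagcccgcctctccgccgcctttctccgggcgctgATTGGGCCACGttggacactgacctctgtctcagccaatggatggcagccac
Element II occurred in 12 of 27025 promoters (0.0444%). Among the members with a promoter it stood in Herpud1 alone, which was also the searched member of its arm with a C/EBP-ATF element. Manf and Hyou1 of this arm had no promoter in the set and were not searched.

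Manf read 4073 and 4117 in wild type, 1517 and 2172 in knockout-control, and 2011 and 1217 in knockdown cells. The 4 arrays of knockout cells lay below both wild-type arrays and overlapped among themselves. The log2 fold change was -1.16 ± 0.25 for knockout-control against wild type (limma adjusted p = 0.0335), -1.37 ± 0.25 for knockdown against wild type (adjusted p = 0.0133), and -0.21 ± 0.25 in the knockdown step (adjusted p = 0.771). The first call was lost when any 1 of the wild-type or knockout-control arrays was left out, with an adjusted p of up to 0.221 and values between -1.41 and -0.91.

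Herpud1 read 1717 and 1719 in wild type, 2507 and 2655 in knockout-control, and 2851 and 2631 in knockdown cells, again with wild type apart and the knockout groups overlapping. Its log2 fold changes over wild type were 0.58 ± 0.14 (limma adjusted p = 0.047) and 0.66 ± 0.14, a 1.58-fold rise (adjusted p = 0.0216), and the step between the knockout groups was 0.09 (adjusted p = 0.84). The first call was lost without any 1 of the wild-type or knockout-control arrays, with an adjusted p between 0.191 and 0.349. A second Herpud1 probe set read 1763 and 1868, then 2223 and 2862, then 2984 and 2061, and did not pass (0.47 and 0.44 over wild type, adjusted p = 0.249 and 0.226).

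Sdf2l1, an ER protein that works with the chaperone BiP, read 952 and 873.9 in wild type, 570.1 and 641.5 in knockout-control, and 503.9 and 525.3 in knockdown cells. The 3 groups did not overlap and stood in that order. Sdf2l1 fell 1.73-fold from wild type to knockdown cells (-0.79 ± 0.14, limma adjusted p = 0.0128). Its difference between wild type and knockout-control, -0.57 ± 0.14, was just outside the threshold (adjusted p = 0.0563).

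Hspa5 encodes BiP, the main ER chaperone, which also holds the sensors inactive. It read 7156 and 7329 in wild type, 4720 and 5772 in knockout-control, and 5928 and 4838 in knockdown cells. All 4 knockout arrays were below wild type, at -0.47 ± 0.17 (limma adjusted p = 0.151) and -0.43 ± 0.17 (adjusted p = 0.146), and neither difference passed. Its 2 other probe sets gave -0.49 and -0.18 in the first comparison.

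The lectin chaperones Calr and Canx, which hold glycoproteins until they fold, were placed likewise. Calr read 6093 and 5684, then 4257 and 4938, then 5123 and 4445, and Canx read 4636 and 4517, then 3168 and 4062, then 3605 and 2729. Hsp90b1, the ER member of the HSP90 family, read 5569 and 5188, then 4028 and 4617, then 4709 and 2997. For these 3 genes every knockout array was below every wild-type array, and no difference passed the test. Pdia4, a disulfide isomerase, and Creld2, an ER-resident stress protein, were also below wild type on all 4 knockout arrays, at 635.7 to 747.8 against 799.1 and 826.2 for Pdia4 and at 780 to 891.6 against 1003 and 989.9 for Creld2. A second Pdia4 probe set was not placed so. It read 547.6 and 519.1 in wild type, 620.3 and 567.7 in knockout-control, and 477.2 and 569.3 in knockdown cells. The isomerase Pdia6 (2380 to 2858) and the chaperone Hyou1 (999 to 1205) changed little over the 6 arrays.

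At an unadjusted p under 0.05, 4 of the 15 chaperone-arm genes were lower in knockout-control than in wild type (Hspa5, Calr, Sdf2l1 and Manf) and 2 were higher (Herpud1 and Dnajb9), beside 12.0% and 9.17% of all genes. Without overlap between the groups, 8 were lower and 3 higher, beside 30.1% and 28.0% of all genes. The counts of lower members were thus above the background share and the counts of higher members near it. With the mean of each gene's probe sets in place of the brightest, the arm's median was -0.11, with the next brightest probe sets it was -0.16, and without knockout-control replicate 1 it was -0.17.

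Of the remaining members Xbp1, Dnajb9, Sel1l and Edem1, the first 3 were above 0 against wild type and Edem1 was below. Xbp1, the factor whose messenger IRE1 splices, read 3778 and 4036 in wild type, 3536 and 4446 in knockout-control, and 5036 and 4352 in knockdown cells. Its log2 fold changes were 0.02 ± 0.17 (limma adjusted p = 0.964) and 0.24 ± 0.17 (adjusted p = 0.585) in the 2 steps, and the array does not separate spliced from unspliced forms here. Dnajb9, a BiP co-chaperone and a target of spliced XBP1, read 1996 and 2055, then 2675 and 3284, then 3294 and 2094. It was thus above wild type on all 4 knockout arrays, with 0.54 ± 0.22 for knockout-control (adjusted p = 0.201). Sel1l, the scaffold of the ER ubiquitin ligase HRD1, ranged from 1502 to 2095, without a call by its brightest probe set. Its dimmer probe sets gave 0.66, 0.55, 0.60 and 0.58 for knockdown against wild type. Only the last of these passed (limma adjusted p = 0.0411 in the fit over all probe sets). Edem1, which hands glycoproteins to degradation, read 1650 and 1709, then 1281 and 1793, then 1589 and 1135, with log2 fold changes of -0.14 and -0.31 against wild type that did not pass.

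Lowering PGC-1β further did not move the ER chaperone arm past the test. In the knockdown step 0 of 15 were called, 0 passed an unadjusted p under 0.05, 7 were above and 8 below 0, and the median was -0.07. Of the 15, 1 was higher and 2 were lower without overlap (Pdia4, Sdf2l1 and Hyou1), beside 17.1% and 21.4% of all genes. The largest differences of the arm in this step were those of Xbp1 (0.24) and Sdf2l1 (-0.22, limma adjusted p = 0.553). This median was 0.07 without knockout-control replicate 2 and 0.14 without knockdown replicate 2, so its sign was not settled.

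**Figure D2:**
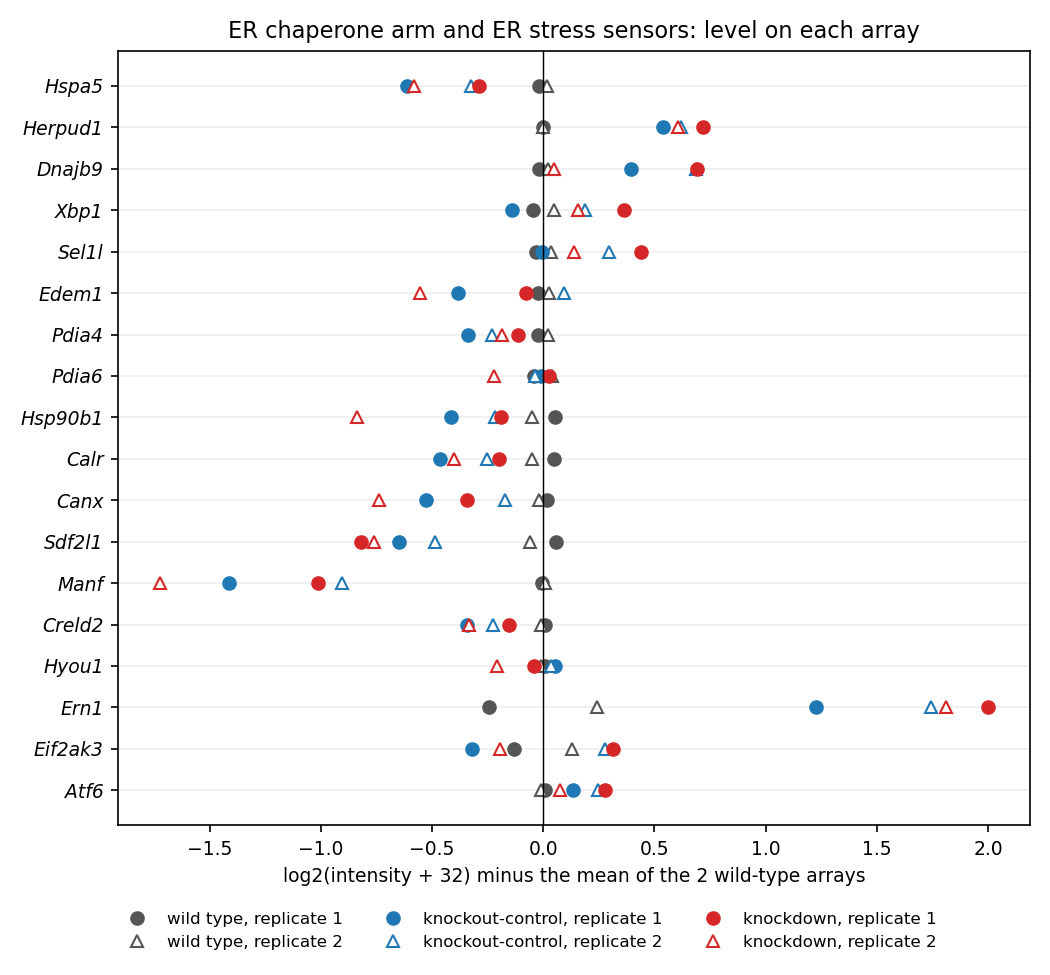
Level of each ER chaperone-arm gene and ER stress sensor on each array, as log2(intensity + 32) minus the mean of the 2 wild-type arrays; filled circles are replicate 1, open triangles replicate 2, and colours are the 3 groups. Manf and Sdf2l1 lie to the left of wild type in both knockout groups and Herpud1 and Ern1 to the right. Knockout-control (blue) and knockdown (red) overlap for Manf and Herpud1 and do not overlap for Sdf2l1 and Ern1.

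The sensor Ern1, which encodes IRE1α, had the largest difference among the members. Its brightest probe set read 241.6 and 351.7 in wild type, 727.2 and 1053 in knockout-control, and 1265 and 1103 in knockdown cells. The 3 groups did not overlap. In wild type this probe set was the dimmest of the 3 above the limit, and it was the brightest over the 6 arrays through the knockout groups, so that its choice used the difference reported and its p-values are not free of that choice. Ern1 so measured rose 2.8-fold from wild type to knockout-control (1.49 ± 0.22, limma adjusted p = 0.00766) and 3.75-fold to knockdown cells (1.91 ± 0.22, adjusted p = 0.00202), and the step between these, 0.42 ± 0.22, did not pass (adjusted p = 0.453). Without knockout-control replicate 2 the first adjusted p was 0.0518.

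The other 2 Ern1 probe sets above the limit did not show this rise. Probe set 1421240_at read 359.1 and 376.1, then 404.2 and 437.8, then 497.6 and 369.7, with log2 fold changes over wild type of 0.18 and 0.21 (limma adjusted p = 0.626 and 0.513 in a fit over all probe sets). Probe set 1450176_at read between 370 and 412.7 on all 6 arrays (0.10 and 0.05). The result for Ern1 therefore belongs to probe set 1437119_at, and where on the transcript each probe set lies was not analysed here.

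**Figure D3:**
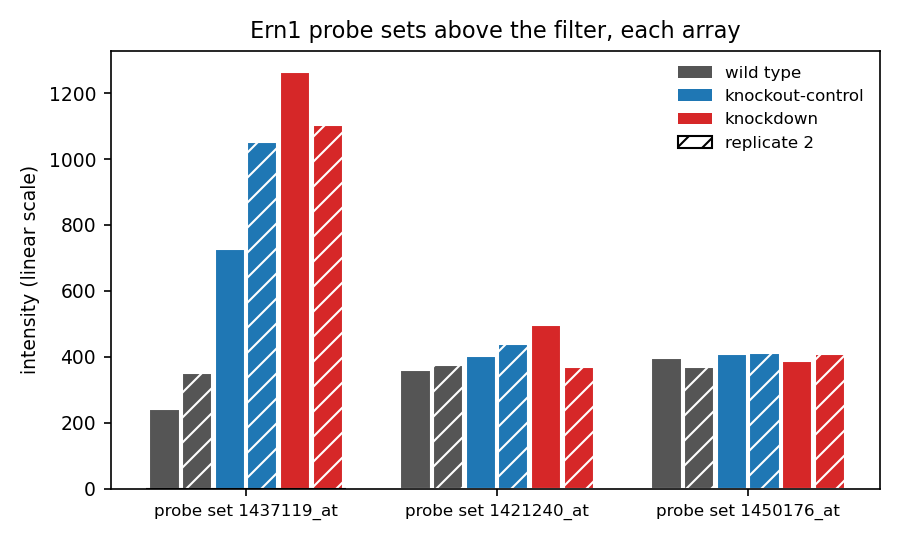
Intensity (linear scale, from 0) of the 3 Ern1 probe sets above the limit on each array; bars are single arrays, colours the 3 groups, and hatching marks replicate 2. Probe set 1437119_at goes from 241.6 and 351.7 in wild type to 1265 and 1103 in knockdown cells, while 1421240_at and 1450176_at stay between 359.1 and 497.6.

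The other sensors showed no call in any comparison. Eif2ak3, which encodes PERK, read 398 and 483.8 in wild type, 344.8 and 538.4 in knockout-control, and 553.5 and 379.9 in knockdown cells, with overlap in every comparison (-0.02, 0.08 and 0.06; limma adjusted p = 0.975, 0.916 and 0.904). Atf6 read 882.3 and 871.6, then 964 and 1047, then 1070 and 924.4, slightly above wild type on all 4 knockout arrays (0.19 and 0.18, adjusted p = 0.52 and 0.502) and with a knockdown step of -0.01 (adjusted p = 0.979). By its other probe sets above the limit Atf6 was not placed so. These gave -0.02 and 0.02 for knockout-control against wild type and 0.03 and 0.12 for knockdown against wild type, with overlapping groups. Sensors act through phosphorylation, splicing and cleavage, which these arrays do not measure.

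Set against wild type, the knockdown cells combined both steps. Of the 37 members tested, 6 rose (Atf3, Chac1, Nupr1, Slc3a2, Herpud1 and Ern1) and 2 fell (Sdf2l1 and Manf). Ern1 is counted by its brightest probe set, and its other probe sets above the limit did not show the rise. Over all 13644 genes tested, 1365 changed (10.0%), 546 up and 819 down. This comparison shares its arrays with the other 2, so its values are no separate evidence. The ATF4 arm had 4 risen and 0 fallen of 19, with a median of 0.39, and the ER chaperone arm 1 risen and 2 fallen of 15, with a median of -0.25, beside -0.03 over all genes. The first median was 0.16 without knockdown replicate 1, and the second -0.12 without knockdown replicate 2.

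At an unadjusted p under 0.05, 7 ATF4-arm genes were higher and 0 lower, beside 10.8% and 14.7% of all genes. In the ER chaperone arm 1 was higher and 5 were lower. Without overlap, 11 of 15 ATF4-arm genes with values on all arrays were higher and 0 lower, and 4 of 15 chaperone-arm genes were higher and 10 lower, beside 24.6% and 30.4% of all genes. Atf3, Nupr1, Slc3a2, Sdf2l1, Manf and Herpud1 each lost this call when either wild-type array was left out, with adjusted p of up to 0.193, 0.144, 0.131, 0.148, 0.0575 and 0.195. Atf3 also lost it without knockdown replicate 1 (log2 fold change 0.68). In the 6 fits that left out an array, the log2 fold change lay between 1.14 and 1.49 for Chac1 and between 1.66 and 2.15 for Ern1. For Ern1 these fits kept the probe set whose choice used the difference, so they do not test that choice. Members called in this comparison were 2 without wild type replicate 1 or 2.

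**Figure D4:**
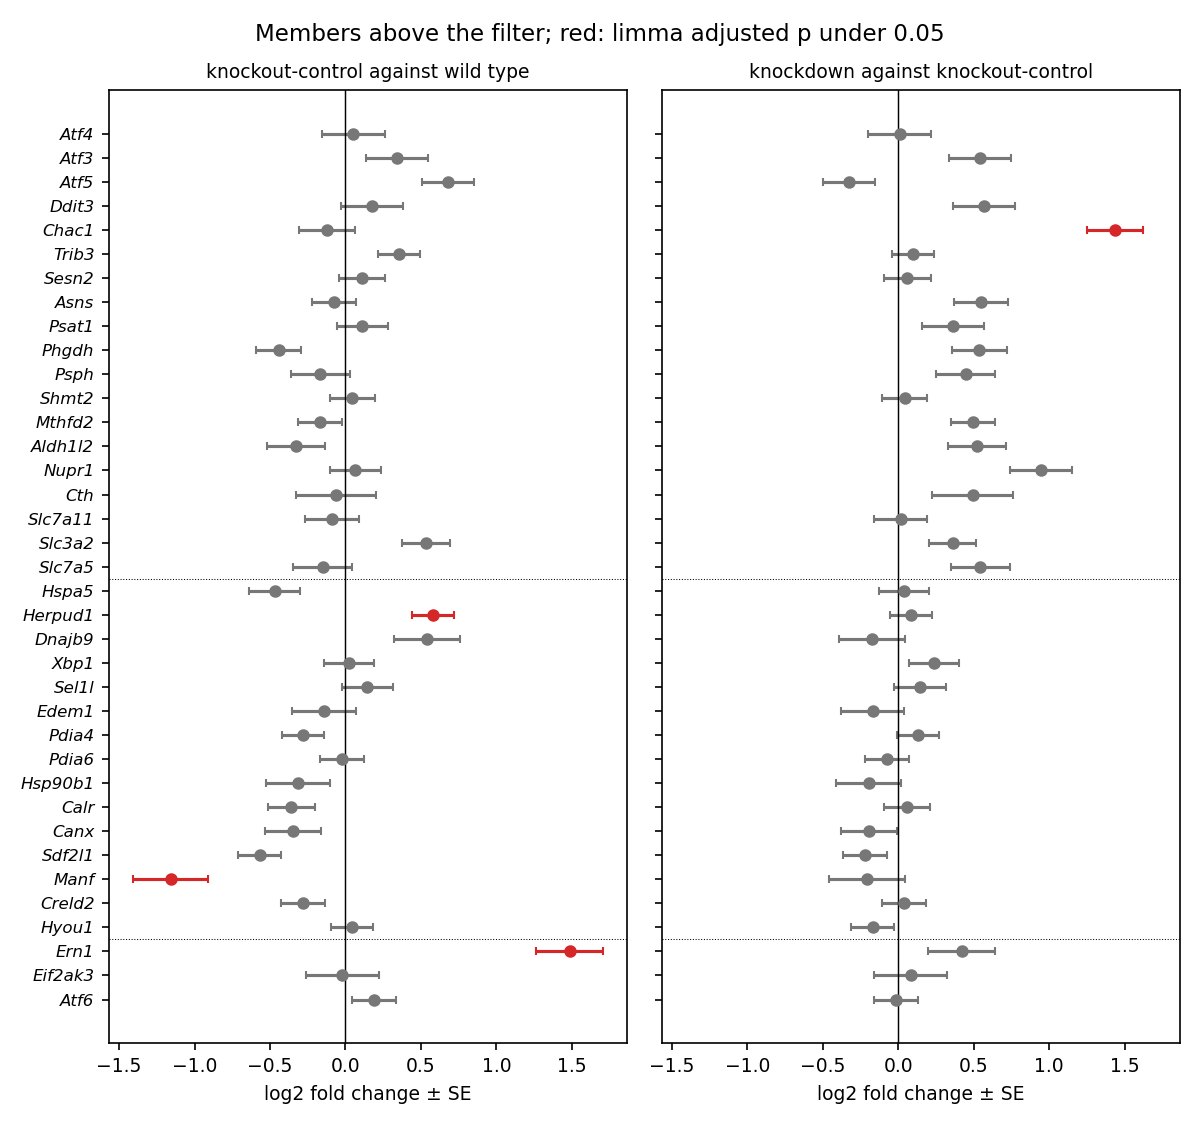
Log2 fold change ± SE of each member above the limit for knockout-control against wild type (left) and knockdown against knockout-control (right), with dotted lines between the ATF4 arm, the ER chaperone arm and the sensors; red marks a limma adjusted p under 0.05. Herpud1, Manf and Ern1 are red on the left and Chac1 on the right, where ATF4-arm points lie mostly above 0.

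Further genes of these pathways were taken from 2 lists. Of 30 further integrated stress genes, 28 had a probe set and 27 were tested: 2 rose and 0 fell in knockout-control against wild type, 1 rose and 0 fell in the knockdown step, and 4 rose and 0 fell in knockdown against wild type, beside 6.05%, 0.835% and 10.0% of all genes called in either direction. Ddit4 (REDD1), a stress-induced inhibitor of mTORC1, read 1526 and 1249 in wild type, 1763 and 1132 in knockout-control, and 4231 and 3249 in knockdown cells. Both knockdown arrays were above the other 4, as for Chac1, and Ddit4 rose 2.59-fold in the knockdown step (1.37 ± 0.23, limma adjusted p = 0.0443) and 2.65-fold from wild type (adjusted p = 0.00908). The first call was lost without knockout-control replicate 1 (0.0789) or 2 (0.19), and the second without wild type replicate 2 (0.0559).

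Trp53inp1, a stress-induced p53 partner, read 1726 and 1785 in wild type, 5985 on the knockout-control array with a value and 5082 on the knockdown array with one. It rose 3.37-fold in knockout-control (1.75 ± 0.19, limma adjusted p = 0.00441) and 2.86-fold in knockdown cells (adjusted p = 0.00624), each on 1 array. Of the eIF2B subunits, which restore eIF2 and are what phosphorylated eIF2α inhibits, Eif2b4 rose 1.56-fold in knockout-control (760.6 and 705.6 to 1137 and 1182, adjusted p = 0.0377) and Eif2b2 1.63-fold from wild type to knockdown cells (876.4 and 845.3 to 1507 and 1343, adjusted p = 0.0234). Pck2, the mitochondrial PEP carboxykinase, rose 1.68-fold in that comparison on 1 knockdown array (2828 and 2793 to 4752, adjusted p = 0.0405). The medians of this list were 0.10, 0.11 and 0.05 in the 3 comparisons, beside an ATF4-arm median of 0.49 in the knockdown step. When either wild-type array was left out the calls of Eif2b4, Eif2b2 and Pck2 were lost (adjusted p of up to 0.344, 0.2 and 0.244), as were those of Eif2b4 and Pck2 when either knockout-control array was. The difference between the lists was not tested.

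Of 32 further ER folding and degradation genes, all were tested. In knockout-control against wild type 0 were called by limma, 6 were lower and 0 higher at an unadjusted p under 0.05 (beside 12.0% and 9.17% of all genes), 22 of 32 were below 0, and the median was -0.14. In the knockdown step 1 rose and 0 fell, with a median of 0.04, and in knockdown against wild type 0 were called, 1 higher and 5 lower at an unadjusted p under 0.05 (beside 10.8% and 14.7% of all genes), with a median of -0.06. The gene that rose was Atf6b, a relative of ATF6. It read 278.4 and 303.7 in wild type, 165.8 and 216 in knockout-control, and 409 and 363.2 in knockdown cells. Knockout-control was the lowest group, and the 1.88-fold rise (0.91 ± 0.16, limma adjusted p = 0.0494) was kept without knockdown replicate 1 and lost without each of the other 5 arrays, with an adjusted p of up to 0.287.

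Markers of other cells were measured beside both knockout groups. Summed smooth muscle and pericyte markers (7 of 7 named) were 5418 to 5876 in wild type, 3752 to 3870 in knockout-control and 3284 to 3367 in knockdown cells, moving with the differences from wild type. Acta2, the largest of them, read 3392 and 2998, then 2067 and 2052, then 1762 and 1784. Of the 5 tested, 3 were called lower in each comparison with wild type. Myh11 was higher in knockout-control (437.6 and 433) than in wild type (354.9 and 364.4). Summed macrophage markers were 3562 to 3616, 3422 to 4028 and 3227 to 3685, endothelial markers 739.6 to 776.2, 772.4 to 841.3 and 703.5 to 804.9, and skeletal muscle markers 2134 to 2275, 1813 to 2199 and 2066 to 2176 in the same order. No marker was listed at 0, but missing cells added nothing to these sums. Myod1 had no value on knockout-control replicate 1 and read 286.5 to 378.9 on the other arrays, so the 1813 lacks it. Myog had no value on wild type replicate 2 and Pecam1 none on knockdown replicate 1. Their part in the differences from wild type was not tested.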

How the data were processed

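The deposited files hold, for each of the 6 arrays, intensity values per probe set that the authors had already summarised and scaled; the sources used here name neither the software nor the scaling. Having 2 arrays a group limits the precision. Cells without a number were kept as missing. Of 45037 probe sets, 34945 carried 1 gene symbol in the platform annotation, 932 several, and the rest none; symbols were updated by gene ID. Each gene took its brightest probe set; genes below the 40th percentile of mean log2 values (7.61) were left out. Log2(intensity + 32) was fitted with group means over all 6 arrays in limma 3.58.1 (R 4.3.3), with Benjamini-Hochberg adjustment over all genes tested and calls at an adjusted p under 0.05. The fit was tested on simulated data. An exact permutation test of 2 against 2 cannot go below p = 0.333 and was not used. Every member was named; full statistics went to called members, the 2 largest differences of each arm and comparison, and Atf4, Ddit3, Xbp1, Hspa5 and the sensors, and further genes were named if called. Members and lists were chosen with earlier results of these data known, and the ER stress response element II was added after the promoters were seen. Fold changes are on the log2(intensity + 32) scale. Alternatives are given in the closing section.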

Additional observations from a re-analysis of the deposited data

How the results depend on the processing

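With 3 residual degrees of freedom, the counts of calls moved with the settings, while no called member changed direction in any alternative run. Of 99 uncalled member values, 46 changed sign and 18 were called under some alternative. In the order knockout-control against wild type, knockdown against knockout-control and knockdown against wild type, 3, 1 and 8 members were called; a count not given below stayed within 1.5 times. Members called were 1, 0 and 4 with no filter on dim genes, 7, 2 and 15 with quantile normalization, and 0 and 0 in the first 2 with probe sets averaged per gene. In the first comparison 5 were called with the larger pseudocount tried, with genes under the 60th percentile left out or with equal array medians, 1 with the next brightest probe set, and 7 with trend and robust variance or with only the 2 groups compared. In the second, 2 were called with the larger pseudocount tried or with trend and robust variance. Leaving out 1 array gave 0 to 7 (0 without knockout-control replicate 2, 7 without either knockdown array, 1 without each other), 0 to 1 (0 without either knockout-control array) and 2 to 12 (2 without either wild-type array, 12 without knockdown replicate 2).

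Over all genes, 826, 114 and 1365 were called. The counts were 364, 9 and 585 with no filter, 1658, 380 and 2296 with quantile normalization, and 474, 13 and 778 with probe sets averaged per gene. With only the 2 groups compared they were 1786 and 47 in the first 2 comparisons. In the knockdown step they were 72 with the smaller pseudocount of 8, 262 with the larger, 325 with trend and robust variance, and 199 when genes under the 60th percentile were left out. Leaving out 1 array gave 232 to 1786 (fewest without knockout-control replicate 1, most without either knockdown array), 8 to 539 (fewest without knockout-control replicate 2, most without knockdown replicate 1) and 327 to 2339 (fewest without wild type replicate 2, most without knockdown replicate 1).

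Of the further pathway genes, 2, 2 and 4 were called. No filter gave 1, 0 and 2, quantile normalization 9 and 12 in the comparisons with wild type, the mean of probe sets 1 and 0 in the first 2, and only the 2 groups compared 7 and 1. The larger pseudocount gave 4 in the first, and in the second the smaller gave 0 and the 60th percentile 1. Leaving out 1 array gave 0 to 7, 0 to 2 and 1 to 8. The cause of these differences was not tested.

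The sample titles number the replicates but do not say whether the numbers pair samples across groups. The difference of replicate 1 minus 2 correlated across genes at 0.20 between wild type and knockout-control and -0.15 between wild type and knockdown. Between knockout-control and knockdown it correlated at -0.50. These correlations do not settle whether samples were paired. With the replicate block, 1 member was called in the first comparison, and 410, 22 and 729 genes and 1, 1 and 2 further genes in the 3 comparisons. With the knockdown numbers crossed in the block, an alternative added after seeing the data, 8 and 2 members were called in the first 2 comparisons, 2043, 770 and 2826 genes, and 7 and 11 further genes in the comparisons with wild type. Empty cells limit the brightest probe sets of Asns, Phgdh, Psat1 and Nupr1 to 1 knockdown array. Other probe sets of Asns and Phgdh had values on both knockdown arrays.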
